A study of Mus musculus with 40 samples.

Results

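Interferon-stimulated genes are the genes that a cell turns up when an interferon reaches it, and 44 of them were followed here through 6 sets of PAX5-transduced plasmacytoma cells. A gene was included by its symbol, and its value was that of the probe set that names it alone and has the highest mean over all 40 arrays. This gave values for 39 of the 44 listed genes, among 17097 genes in all. Isg15, Oas1a, Bst2, Tap1 and Ifi44 were not matched in this way and were not analysed here.

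The study concerns inherited changes of PAX5, the transcription factor that sets and holds B cell identity, in susceptibility to precursor B cell leukaemia. J558LuM, a mouse plasmacytoma line derived from antibody-secreting plasma cells, was transduced with a PAX5 construct or an empty vector and received no treatment. Total RNA was hybridised to Affymetrix expression arrays, and each value is a log2 signal. MIR, the empty vector, has 7 arrays, as do wild-type PAX5 (PAX5-WT) and the single-residue changes PAX5-G183S and PAX5-G183V, while PAX5-P80R, another single-residue change, and PAX5-Δ2-6, by its name a deletion, have 6 each. All groups share 1 tumour line, so the p-values measure only the spread between transductions of that line. Nothing in the labels says what share of the cells carried a construct, and in such bulk RNA fewer cells with a transcript and less transcript per cell cannot be told apart.

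RNA was isolated in 2 batches, and the transduction numbers were divided here into 4 runs, which the labels do not name. Batch 1 holds the numbers 1 to 9 and 34 to 44. In batch 2 the cut was set between 57 and 58, where the numbers have no gap and PAX5-Δ2-6 gives way to MIR. PAX5-G183V, PAX5-P80R and PAX5-Δ2-6 carry the lowest numbers of batch 1 and the lowest numbers of batch 2, while MIR, PAX5-WT and PAX5-G183S carry the higher numbers of each batch, except that PAX5-G183S replicate 4 has number 45 and sits with the first run of batch 2. A difference of PAX5-P80R, PAX5-G183V or PAX5-Δ2-6 from MIR or PAX5-WT is therefore also a difference between runs. PAX5-P80R and PAX5-G183V were for this reason also set against PAX5-Δ2-6, which shares their runs. The labels also give 2 plate batches: all arrays of PAX5-P80R and PAX5-Δ2-6 are on plate 2, with 3 of the 7 arrays of each other group. Other fits named below use the arrays of 1 batch or plate alone, use only the 2 groups compared, leave out the plate and batch terms, or take the replicate number as a block.

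Interferons bind receptors on the cell surface, and the kinases JAK1 and TYK2 on those receptors activate STAT proteins. A complex of STAT proteins with IRF9 binds the interferon-stimulated response element in promoters, while STAT dimers bind the gamma-activated site. The genes turned on in this way sense viral nucleic acids, block viral entry and replication, cut and present antigen, and dampen the response itself, and many cells keep some of them on at a low tone without infection.

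The arrays had the profile of plasma cells. Of 9 listed plasma cell markers, 6 were measured and all lay above 4.77, the median of the mean signals of all genes, with means of 9.02 to 13.2. Their summed signal ranged from 66.2 to 69.57 over the arrays. All 7 fibroblast markers and 6 of 7 T cell markers lay under that median, as did 5 of 7 myeloid, 4 of 7 B cell and 1 of 3 plasmacytoid dendritic cell markers. Cd36 separated the groups widely, at 9.55 to 10.8 in the PAX5-WT, PAX5-G183S and PAX5-G183V arrays and 3.29 to 3.84 in PAX5-Δ2-6. In PAX5-P80R it lay at 3.76 to 3.85 in isolation batch 1 and at 5.51 to 5.73 in batch 2. In MIR it lay at 3.56 to 3.85 in 6 arrays and at 5.89 in replicate 7, so that this empty vector array stands apart, and results that change without it are named below. The Pax5 probe set had medians of 4.51 in MIR, 4.81 in PAX5-WT, 4.68 in PAX5-G183S, 4.85 in PAX5-G183V, 4.95 in PAX5-P80R and 5.00 in PAX5-Δ2-6, and whether the constructs carry the probed stretch is not known, so that it checks nothing.

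The promoters of the listed genes were searched for both binding elements. The response element core, which is GAAANN followed by GAAA, was searched on both strands from 250 bases before to 50 bases after each start site in RefSeq sequence (GRCm38.p6). It occurred in at least 1 promoter of 13 of the 36 listed genes with a promoter in that table, or 36.1%, against 3.99% of 27025 genes. The gamma-activated core TTCNNNGAA occurred in 25% of the listed genes with a promoter against 9.55% of all. Among measured genes, 28.6% of those that passed the test in at least 1 comparison and 35.3% of those that passed in none held the response element core. A match is a stretch of letters and not a shown binding site. The 6 stretches below are those of Ifitm3, which had the largest rise in PAX5-P80R against MIR among the 39 genes, of Ifitm2 in the same cluster, of Rsad2, Cxcl10 and Socs1, which each passed a test below, and of Ifit1, which passed none. Each is written 5′ to 3′ on the strand of its gene, with the bases that match the core on either strand in capitals.
Ifitm3 (chr7:141010714-141010743, minus strand): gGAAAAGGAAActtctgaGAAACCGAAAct
Ifitm2 (chr7:140955988-140956017, minus strand): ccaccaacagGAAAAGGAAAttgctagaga
Rsad2 (chr12:26456553-26456582, minus strand): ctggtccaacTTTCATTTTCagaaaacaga
Cxcl10 (chr5:92349083-92349112, minus strand): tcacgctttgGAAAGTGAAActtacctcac
Socs1 (chr16:10785597-10785626, minus strand): cttgccgGAAAGAGAAACCGAAAgcggggg
Ifit1 (chr19:34640785-34640814, plus strand): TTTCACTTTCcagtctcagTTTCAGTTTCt

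Ifitm3, Socs1 and Ifit1 each show 2 matches in these stretches, and Ifitm2, Rsad2 and Cxcl10 show 1. Ifitm2 and Ifitm3 lie on either side of Ifitm1 in RefSeq (GRCm38.p6), and the Ifitm2 and Ifitm3 stretches share the match GAAAAGGAAA, and their signals are described below.

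The measured genes spread over most of the signal range without any interferon having been added. Their median mean signal was 5.07, and 19 of the 39 lay under the median of all genes while 20 lay at or over it. Both immunoproteasome subunits were bright, with a mean of 12.2 for Psmb8 and 10.9 for Psmb9. Trim25 (9.82), Zbp1 (9.40) and Isg20 (9.35) came next. The dimmest were Oasl2 (3.09), Usp18 (3.44) and Ifit2 (3.44), and Ifit1 had a mean of 3.45. Probes differ in how well they bind, so these levels order the signals and not the transcripts. By role, 9 of 13 antiviral effectors, 3 of 8 nucleic acid sensors, 2 of 5 signalling genes, 3 of 6 ubiquitin, ADP-ribose and nuclear body genes and 1 of 2 secreted proteins lay under the median.

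**Figure D1:**
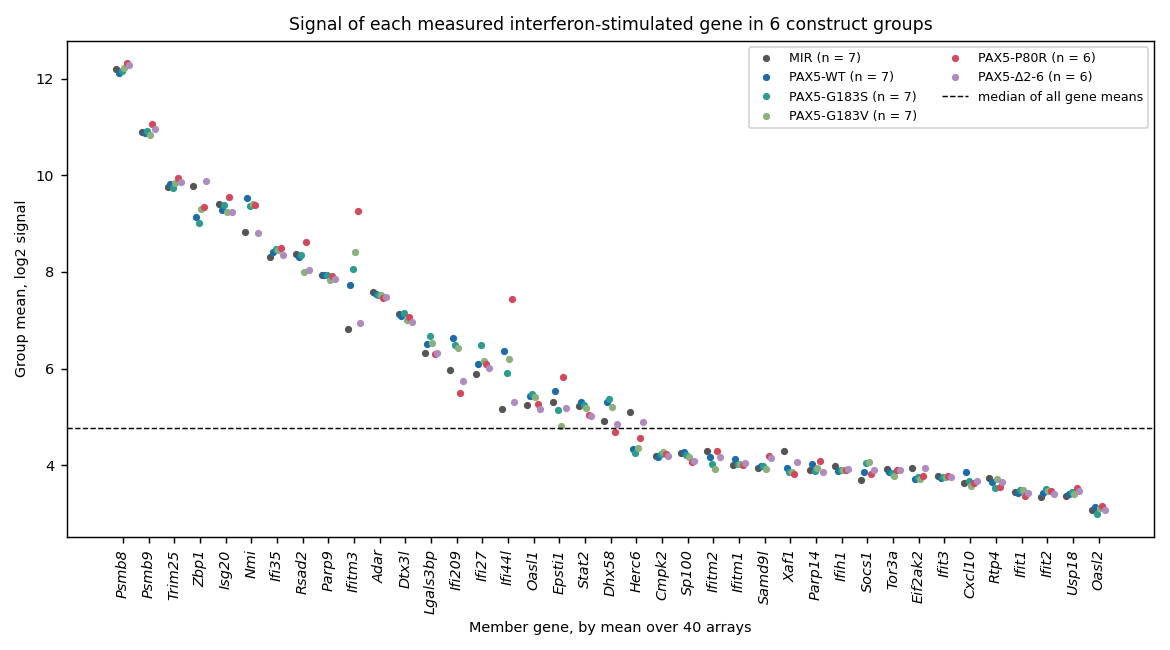
Mean log2 signal of each of the 39 measured interferon-stimulated genes in each construct group (1 point per group), with genes on the horizontal axis ordered by their mean over all arrays and the median of all gene means (4.77) as a dashed line. Psmb8 and Psmb9 are highest, 19 genes have a mean under the line, and the groups spread most for Ifitm3 and Ifi44l.

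As a mean over its 39 genes, the module lay within a narrow range in all groups, and this mean was not tested. In MIR the mean signal lay between 5.69 and 5.84 with a median of 5.78, and in PAX5-WT between 5.73 and 5.92 with a median of 5.87. The PAX5-G183S arrays had a median of 5.80, the PAX5-G183V arrays 5.83, the PAX5-P80R arrays 5.89 and the PAX5-Δ2-6 arrays 5.74. Every PAX5-P80R array lay above every MIR and every PAX5-Δ2-6 array, with a lowest value of 5.855 against highest values of 5.8365 and 5.8056. These means are not adjusted for plate, and all PAX5-P80R arrays are on plate 2. The MIR arrays of plate 2 had 5.8104 to 5.8365, and those of plate 1 had 5.6893 to 5.7771. The module mean also holds Ifitm3 and Ifi44l, with group means of 9.25 and 7.44 in PAX5-P80R against 6.82 and 5.16 in MIR. A mean without these genes was not taken. The single genes moved in both directions, and they are described next.

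Against MIR, a small set of genes rose and another fell in the groups with wild-type or residue-changed PAX5, and no gene passed in PAX5-Δ2-6. Passing means an adjusted p under 0.05 in limma over all genes. In PAX5-WT 6 genes rose and 3 fell, which is 23.1% of the 39, where 6.43% of all genes passed, 3.59% higher and 2.84% lower. In PAX5-G183S 7 rose and 3 fell (25.6%), where 6.12% of all genes passed, 3.69% higher and 2.43% lower. In PAX5-G183V 5 rose and 4 fell (23.1%), where 9.28% of all genes passed, 5.63% higher and 3.64% lower. In PAX5-P80R 5 rose and 4 fell (23.1%), where 4.72% of all genes passed, 2.25% higher and 2.47% lower. In PAX5-Δ2-6 none of the 39 passed (all genes 0%), and 4 had an unadjusted p under 0.05, namely Socs1, Rsad2, Parp9 and Dtx3l. These 5 comparisons share the MIR arrays. The 39 genes were chosen with earlier results of these data known, and that choice may raise the share that passed. The shares of the 39 genes here and below, and those of the pathway lists, are therefore no test of the set. The median difference over the 39 genes stayed near that of all genes in each, for example 0.03 against 0.01 in PAX5-WT and 0.02 against 0.00 in PAX5-P80R.

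Few of these genes separated the groups on every array. The arrays of PAX5-WT and MIR did not overlap for 3 of the 39 genes (all genes 2.24%), those of PAX5-G183S and MIR for 2 (all genes 2.04%), those of PAX5-G183V and MIR for 3 (all genes 2.7%) and those of PAX5-P80R and MIR for 4 (all genes 2.15%).

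Against PAX5-WT, PAX5-G183S differed in none of the 39 genes (6 at an unadjusted p under 0.05), where 0.076% of all genes passed, 0.00585% higher and 0.0702% lower. PAX5-G183V had 2 lower genes, Epsti1 and Cxcl10 (5.13%), where 0.146% of all genes passed, 0.0526% higher and 0.0936% lower. PAX5-P80R had 4 higher and 3 lower (17.9%), where 6.31% of all genes passed, 2.67% higher and 3.63% lower. Of the members, 5 did not overlap between these groups (all genes 2.17%). Against PAX5-Δ2-6 of the same runs, PAX5-P80R had 6 higher genes and 1 lower (17.9%), where 3.3% of all genes passed, 1.95% higher and 1.36% lower, and 5 members did not overlap (all genes 1.99%). PAX5-G183V had 4 higher and 1 lower against PAX5-Δ2-6 (12.8%), where 4.98% of all genes passed, 3.35% higher and 1.64% lower, and 3 members did not overlap (all genes 2.89%). Over all 10 comparisons 17 genes passed at least once (43.6%, all genes 18%) and 22 in none, and 13 of the 17 had a mean over the median of all genes.

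**Figure D2:**
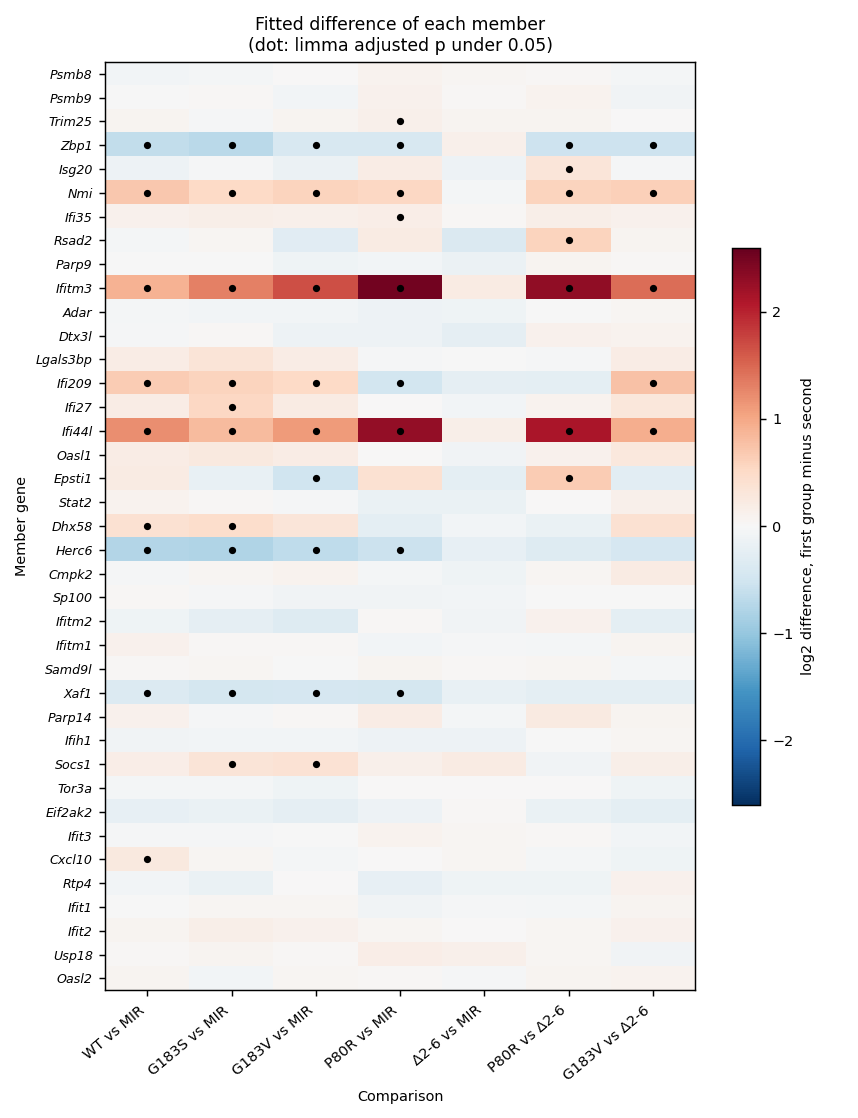
Fitted log2 difference of each of the 39 genes (rows, ordered by mean signal) in 7 comparisons between construct groups (columns), as colour from blue (lower) to red (higher), with a dot where the adjusted p is under 0.05. Ifitm3, Ifi44l and Nmi are red in each column with wild-type or residue-changed PAX5, Herc6, Xaf1 and Zbp1 are blue in the first 4, and the PAX5-Δ2-6 column against MIR has no dot.

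Antiviral effectors changed in a few members only, and Ifitm3, a membrane protein that keeps enveloped viruses from fusing, changed most. Its log2 signal lay between 5.75 and 7.45 in MIR with a median of 7.28, between 6.88 and 8.70 in PAX5-WT with a median of 7.70, and between 7.13 and 8.83 in PAX5-G183S with a median of 8.50. It lay between 8.15 and 8.72 in PAX5-G183V (median 8.32), between 8.85 and 9.54 in PAX5-P80R (median 9.31) and between 6.53 and 7.48 in PAX5-Δ2-6 (median 6.88). All PAX5-P80R arrays lay above all arrays of the other groups, the PAX5-G183V arrays lay above all MIR and PAX5-Δ2-6 arrays, and the PAX5-WT and PAX5-G183S arrays overlapped MIR. Against MIR, Ifitm3 rose by 0.91 (SE 0.24, adjusted p = 0.0157) in PAX5-WT, 1.31 (SE 0.24, adjusted p = 0.000308) in PAX5-G183S, 1.67 (SE 0.24, adjusted p = 6.65e-06) in PAX5-G183V and 2.52 (SE 0.27, adjusted p = 3.16e-08) in PAX5-P80R, the last being 5.72-fold. In PAX5-Δ2-6 the difference from MIR was 0.22, with a 95% interval of -0.33 to 0.77.

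Within the shared runs Ifitm3 was higher in both residue-changed groups. PAX5-P80R lay 2.30 above PAX5-Δ2-6 (SE 0.26, adjusted p = 1.02e-07) and PAX5-G183V 1.45 above it (SE 0.27, adjusted p = 0.000439), with no overlap in either. PAX5-P80R lay 1.61 above PAX5-WT (adjusted p = 0.000111), but with the 4 runs as a term in place of the isolation batch this difference was 1.01 (adjusted p = 0.443). That fit ties the runs of MIR and PAX5-WT to those of the other groups through PAX5-G183S replicate 4 alone. With the same term the difference from MIR was 1.91 (adjusted p = 0.00412) in PAX5-P80R and 1.03 (adjusted p = 0.219) in PAX5-G183V. The PAX5-WT rise depended on single arrays, at 0.77 (adjusted p = 0.0592) without MIR replicate 6 and 0.79 (adjusted p = 0.0559) without PAX5-WT replicate 1. It also ended on batch 2 alone (0.90, adjusted p = 0.17), on plate 2 alone (0.59, 0.584) and without batch terms (0.91, 0.0596), and the PAX5-G183S rise on plate 2 alone (0.68, 0.455). With the replicate block the PAX5-P80R difference from PAX5-WT was 1.31 (adjusted p = 0.0807).

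Ifitm1 and Ifitm2, which encode relatives of Ifitm3 and lie in the same cluster, stayed dim. Ifitm1 ranged from 3.68 to 4.40 and Ifitm2 from 3.69 to 4.94 over all arrays, and every group overlapped every other. Neither passed in any of the 10 comparisons. In PAX5-P80R their differences from MIR were -0.08 for Ifitm1 and 0.03 for Ifitm2.

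Rsad2, which makes viperin, an enzyme that yields a chain-ending nucleotide, was bright in all groups. It lay between 8.16 and 8.55 in MIR (median 8.45), between 8.04 and 8.59 in PAX5-WT (median 8.31) and between 7.70 and 8.68 in PAX5-G183S (median 8.35). In PAX5-G183V it lay between 7.61 and 8.42 (median 7.78), in PAX5-P80R between 8.15 and 9.01 (median 8.68) and in PAX5-Δ2-6 between 7.25 and 8.75 (median 8.05). The PAX5-Δ2-6 arrays covered the widest range and every pair of groups overlapped. PAX5-P80R exceeded PAX5-Δ2-6 by 0.58 (SE 0.15, adjusted p = 0.0189), by 0.18 in isolation batch 1 and 0.98 in batch 2. The call ended without PAX5-P80R replicate 6 (adjusted p = 0.0615) and without PAX5-Δ2-6 replicate 4, 5 or 6 (0.0664, 0.0765 and 0.0866). It also ended on batch 1 alone (adjusted p = 0.548), on plate 2 alone (0.0825) and without batch terms (0.209). The 2 other Rsad2 probe sets gave 0.78 (adjusted p = 0.00458) and 0.92 (adjusted p = 0.000498) for the same comparison. Cmpk2, a mitochondrial nucleotide kinase gene next to Rsad2, had 0.05 there and passed in none.

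Isg20, an exonuclease that degrades RNA, ranged from 9.01 to 9.70. It lay between 9.43 and 9.70 in PAX5-P80R (median 9.58), between 9.01 and 9.49 in PAX5-WT (median 9.25) and between 9.10 and 9.32 in PAX5-Δ2-6 (median 9.25). The PAX5-P80R arrays lay above all PAX5-Δ2-6 arrays and overlapped PAX5-WT slightly. PAX5-P80R exceeded PAX5-Δ2-6 by 0.32 (SE 0.08, adjusted p = 0.0184) and PAX5-WT by 0.32 (SE 0.09, adjusted p = 0.0179). The first call was not followed through the other fits. The second call ended without PAX5-P80R replicate 6 (0.29, adjusted p = 0.0521) and without PAX5-WT replicate 7 (0.26, adjusted p = 0.0828), and it did not pass with the 4 runs as a term, on batch 1 alone (0.15, adjusted p = 0.321), on plate 2 alone (0.33, 0.0958), with the replicate block (0.34, 0.181), with only the 2 groups (0.35, 0.123) or without batch terms (0.27, 0.0513).

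Xaf1, a partner of the apoptosis inhibitor XIAP, was lower in all 4 groups that carried wild-type or residue-changed PAX5. Its medians were 4.30 in MIR, 3.93 in PAX5-WT, 3.88 in PAX5-G183S, 3.86 in PAX5-G183V, 3.79 in PAX5-P80R and 4.04 in PAX5-Δ2-6. MIR spanned 3.91 to 4.62 and overlapped each group. Against MIR it fell by 0.36 (adjusted p = 0.0227) in PAX5-WT, by 0.45 (adjusted p = 0.00267) in PAX5-G183S, by 0.45 (adjusted p = 0.00255) in PAX5-G183V and by 0.45 (adjusted p = 0.0114) in PAX5-P80R. The PAX5-WT call ended without MIR replicate 5 (adjusted p = 0.0673), MIR replicate 6 (0.0706) or PAX5-WT replicate 1 (0.0647), and the PAX5-G183V and PAX5-P80R calls ended with the 4 runs as a term. On batch 1 alone none of the 4 Xaf1 calls passed, at -0.28 (adjusted p = 0.192), -0.24 (0.353), -0.14 (0.704) and -0.48 (0.0757) in the order PAX5-WT, PAX5-G183S, PAX5-G183V and PAX5-P80R, nor did any on plate 2 alone. On batch 2 alone the PAX5-WT and PAX5-P80R falls did not pass (adjusted p = 0.144 and 0.078), and the PAX5-P80R fall ended with the replicate block (0.112) and with only the 2 groups (0.174). The PAX5-Δ2-6 mean of Xaf1 was 4.08 against 4.30 in MIR, and this difference did not pass. Against PAX5-Δ2-6, Xaf1 passed in neither PAX5-P80R nor PAX5-G183V. A dimmer Xaf1 probe set gave differences near 0.

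Ifi27, a mitochondrial membrane protein, rose in PAX5-G183S. Its signal lay between 6.16 and 7.14 there (median 6.32) and between 5.60 and 6.33 in MIR (median 5.89). The 2 groups overlapped narrowly. The difference was 0.54 (SE 0.11, adjusted p = 0.000505), with 0.50 in isolation batch 1 and 0.61 in batch 2. It did not pass on batch 2 alone (0.59, adjusted p = 0.0842) or on plate 2 alone (0.52, 0.112). A second Ifi27 probe set gave 0.30 (adjusted p = 0.0981).

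The remaining effectors, Ifit1, Ifit2, Ifit3, Samd9l, Rtp4, Cmpk2, Ifitm1 and Ifitm2, passed nowhere. Ifit1, Ifit2 and Ifit3 encode proteins that bind foreign RNA ends, Samd9l curbs protein synthesis in infected cells and Rtp4 makes a receptor transport protein. Their fitted differences lay between -0.33 and 0.20 over the 10 comparisons, and the lowest adjusted p was 0.125.

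**Figure D3:**
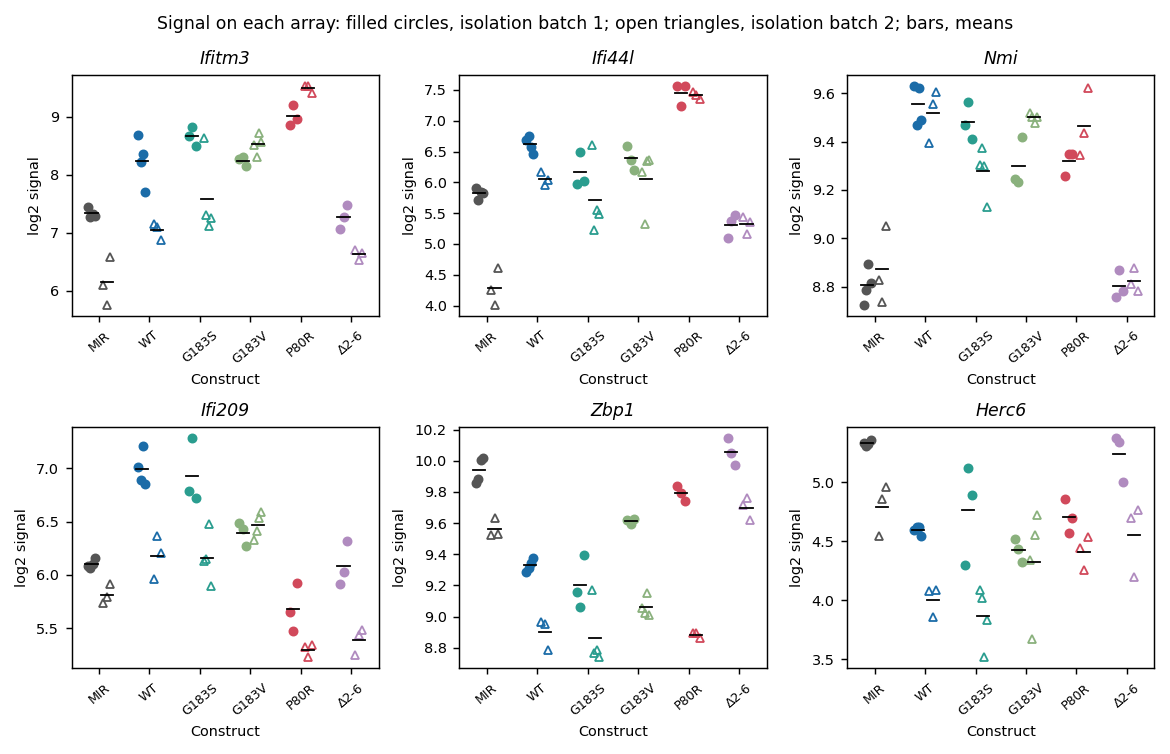
Log2 signal of Ifitm3, Ifi44l, Nmi, Ifi209, Zbp1 and Herc6 on each array, by construct group, with filled circles for isolation batch 1, open triangles for batch 2 and bars for the mean of each batch. The PAX5-P80R arrays are highest for Ifitm3 and Ifi44l, and Nmi falls into a low set (MIR and PAX5-Δ2-6, up to 9.05) and a high set (the other 4 groups, from 9.13).

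Among the genes with other or uncertain roles, Ifi44l changed most. It encodes a feedback regulator of the antiviral response. Its signal lay between 4.01 and 5.91 in MIR (median 5.71), between 5.96 and 6.75 in PAX5-WT (median 6.46) and between 5.23 and 6.61 in PAX5-G183S (median 5.98). It lay between 5.33 and 6.59 in PAX5-G183V (median 6.34), between 7.24 and 7.57 in PAX5-P80R (median 7.44) and between 5.09 and 5.48 in PAX5-Δ2-6 (median 5.36). PAX5-P80R stood above all other arrays, PAX5-WT lay just above MIR without overlap, and PAX5-G183S and PAX5-G183V overlapped MIR. Against MIR the rise was 1.21 (SE 0.20, adjusted p = 5.36e-05) in PAX5-WT, 0.82 (SE 0.20, adjusted p = 0.00762) in PAX5-G183S, 1.10 (SE 0.20, adjusted p = 0.000215) in PAX5-G183V and 2.28 (SE 0.23, adjusted p = 3.82e-09) in PAX5-P80R, which is 4.85-fold. For PAX5-Δ2-6 the difference was 0.16, with a 95% interval of -0.30 to 0.61.

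Within the shared runs Ifi44l was higher in PAX5-P80R than in PAX5-Δ2-6 by 2.12 (SE 0.22, adjusted p = 9.17e-09), by 2.14 in isolation batch 1 and 2.10 in batch 2. PAX5-G183V exceeded PAX5-Δ2-6 by 0.95 (SE 0.23, adjusted p = 0.00687), although their arrays overlapped. PAX5-P80R exceeded PAX5-WT by 1.07 (adjusted p = 0.00179) without overlap, and by 0.86 (adjusted p = 0.185) with the replicate block. With the 4 runs as a term the differences across runs did not pass, at 1.35 (adjusted p = 0.0979) for PAX5-P80R against MIR, 0.18 (adjusted p = 0.948) for PAX5-G183V against MIR and 0.13 (adjusted p = 0.992) for PAX5-P80R against PAX5-WT. A second Ifi44l probe set gave 1.42, 0.59 (adjusted p = 0.0571), 1.22 and 2.42 against MIR in the order PAX5-WT, PAX5-G183S, PAX5-G183V and PAX5-P80R. A further, dim Ifi44l probe set, with a mean of 3.44, gave 0.06 (adjusted p = 0.799), -0.09 (0.642), 0.01 (0.942) and 0.32 (0.0244) in the same order. It gave 0.34 (adjusted p = 0.0139) for PAX5-P80R against PAX5-Δ2-6, and 0.26 (0.0662) against PAX5-WT and 0.03 (0.904) for PAX5-G183V against PAX5-Δ2-6, which did not pass. The PAX5-G183S rise of Ifi44l also ended on batch 1 alone (0.32, adjusted p = 0.209), on plate 2 alone (0.35, 0.579) and without batch terms (0.75, 0.0662), and the PAX5-G183V difference from PAX5-Δ2-6 on batch 2 alone (0.81, adjusted p = 0.158).

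Epsti1, named for its link to contact between epithelium and stroma, was lowest in PAX5-G183V and highest in PAX5-P80R by its group medians. It lay between 4.61 and 5.09 in PAX5-G183V (median 4.72), between 5.12 and 5.96 in PAX5-WT (median 5.42), between 4.77 and 6.13 in MIR (median 5.46), between 5.43 and 6.02 in PAX5-P80R (median 5.89) and between 4.92 and 5.42 in PAX5-Δ2-6 (median 5.25). The PAX5-G183V arrays lay under all PAX5-WT arrays, and the PAX5-P80R arrays above all PAX5-Δ2-6 arrays. In PAX5-G183V it fell by 0.53 against MIR (SE 0.14, adjusted p = 0.00866) and by 0.74 against PAX5-WT (SE 0.14, adjusted p = 0.00837), the latter at an adjusted p of 0.0556 without PAX5-WT replicate 6. Neither passed with the 4 runs as a term. In PAX5-P80R it was 0.65 above PAX5-Δ2-6 (SE 0.15, adjusted p = 0.00475). A dimmer Epsti1 probe set, with a mean of 3.77, gave -0.16 (adjusted p = 0.154), -0.17 (0.337) and 0.03 (0.927) for these 3 comparisons. On the arrays of isolation batch 1 alone none of the 3 calls passed, at -0.24 (adjusted p = 0.698), -0.61 (0.316) and 0.61 (0.286). Tor3a, an endoplasmic reticulum ATPase, passed in none, with differences of -0.12 to 0.05.

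Signalling and feedback genes rose or did not pass. Nmi, which binds MYC and STAT proteins, separated these groups on every array. It lay between 8.72 and 9.05 in MIR (median 8.82) and between 8.76 and 8.88 in PAX5-Δ2-6 (median 8.80). It lay between 9.40 and 9.63 in PAX5-WT (median 9.56), 9.13 and 9.56 in PAX5-G183S (median 9.37), 9.23 and 9.52 in PAX5-G183V (median 9.48) and 9.26 and 9.62 in PAX5-P80R (median 9.35). The first 2 groups overlapped each other, and none of their arrays reached the other 4 groups. Against MIR the rise was 0.70 (SE 0.06, adjusted p = 4.91e-11) in PAX5-WT, 0.53 (SE 0.06, adjusted p = 6.6e-08) in PAX5-G183S, 0.58 (SE 0.06, adjusted p = 9.55e-09) in PAX5-G183V and 0.53 (SE 0.07, adjusted p = 9.66e-07) in PAX5-P80R. PAX5-Δ2-6 differed from MIR by -0.05, with a 95% interval of -0.18 to 0.09.

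The Nmi rise was present in both isolation batches and with the 4 runs as a term, and of its calls against MIR the PAX5-G183S one did not pass on plate 2 alone (0.34, adjusted p = 0.0572). Its differences from MIR were 0.75 and 0.65 in isolation batches 1 and 2 for PAX5-WT, 0.68 and 0.40 for PAX5-G183S, 0.50 and 0.62 for PAX5-G183V and 0.49 and 0.57 for PAX5-P80R. Against PAX5-Δ2-6 it was higher by 0.58 in PAX5-P80R (adjusted p = 8.88e-08) and by 0.62 in PAX5-G183V (adjusted p = 2.8e-08). With the 4 runs as a term its difference from MIR was 0.66 (adjusted p = 0.0137) in PAX5-P80R and 0.69 (adjusted p = 0.00279) in PAX5-G183V. Ifi35, whose protein pairs with that of Nmi, lay between 8.32 and 8.62 in PAX5-P80R (median 8.52) and between 8.19 and 8.46 in MIR (median 8.31). The groups overlapped, and the rise of 0.18 (adjusted p = 0.0492) ended in 9 of 13 fits that left out 1 array, with adjusted p of 0.0642 to 0.133. It also did not pass on batch 1 alone (adjusted p = 0.33), batch 2 alone (0.292) or plate 2 alone (0.523), with the replicate block (0.369), with only the 2 groups (0.492) or with the 4 runs as a term (0.501).

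Socs1, which shuts JAK kinases off, was dim and rose slightly in 2 groups. Its medians were 3.65 in MIR, 3.85 in PAX5-WT, 4.06 in PAX5-G183S, 3.97 in PAX5-G183V, 3.81 in PAX5-P80R and 3.87 in PAX5-Δ2-6. All of these groups overlapped MIR, where replicate 1 was highest at 3.96. The rise was 0.33 (SE 0.09, adjusted p = 0.0183) in PAX5-G183S and 0.37 (SE 0.09, adjusted p = 0.00608) in PAX5-G183V, where it was 0.11 in isolation batch 1 and 0.62 in batch 2. The PAX5-G183V rise did not pass with the 4 runs as a term, on batch 1 alone (0.10, adjusted p = 0.734), on plate 2 alone (0.38, 0.317) or with only the 2 groups (0.36, 0.0539). The PAX5-G183S rise of Socs1 was not followed through the other fits. Stat2, a subunit of the factor that binds the response element, and Usp18, which strips ISG15 from proteins and blocks the receptor, passed nowhere, with differences of -0.25 to 0.18 and a lowest adjusted p of 0.259.

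Nucleic acid sensors moved both ways. Zbp1, a sensor of left-handed nucleic acid that can start cell death, was among the brightest members and fell. It lay between 9.52 and 10.02 in MIR (median 9.86), between 8.79 and 9.38 in PAX5-WT (median 9.29) and between 8.74 and 9.40 in PAX5-G183S (median 9.06). It lay between 9.01 and 9.62 in PAX5-G183V (median 9.15), between 8.86 and 9.84 in PAX5-P80R (median 9.32) and between 9.62 and 10.15 in PAX5-Δ2-6 (median 9.87). PAX5-WT and PAX5-G183S lay under all MIR arrays, while PAX5-G183V and PAX5-P80R overlapped MIR. Against MIR it fell by 0.63 (SE 0.07, adjusted p = 8.17e-08) in PAX5-WT, by 0.70 (SE 0.07, adjusted p = 1.16e-08) in PAX5-G183S, by 0.41 (SE 0.07, adjusted p = 0.000191) in PAX5-G183V and by 0.41 (SE 0.08, adjusted p = 0.00142) in PAX5-P80R. The PAX5-Δ2-6 difference was 0.13, with a 95% interval of -0.04 to 0.30.

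The PAX5-P80R fall of Zbp1 against MIR was -0.16 in isolation batch 1 and -0.69 in batch 2. This call ended on batch 1 alone (-0.21, adjusted p = 0.143), without batch terms (-0.44, 0.126), with only the 2 groups (-0.41, 0.111), with the replicate block (-0.45, 0.0645) and with the mean of all probe sets (-0.27, 0.225). The PAX5-G183V fall ended with that mean (-0.24, adjusted p = 0.161) and on plate 2 alone (-0.39, 0.0782).

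Zbp1 was also lower than in PAX5-Δ2-6 in both groups of the same runs. It decreased by 0.54 (SE 0.08, adjusted p = 1.9e-05) in PAX5-P80R and by 0.54 (SE 0.08, adjusted p = 2.32e-05) in PAX5-G183V. By batch these differences were -0.27 in batch 1 and -0.81 in batch 2 for PAX5-P80R, and -0.44 and -0.63 for PAX5-G183V. The PAX5-P80R call ended on batch 1 alone (adjusted p = 0.0766) and without batch terms (0.0773). With the 4 runs as a term the differences from MIR were -0.95 (adjusted p = 0.000363) in PAX5-P80R and -0.92 (adjusted p = 0.000126) in PAX5-G183V. A dimmer Zbp1 probe set, with a mean of 5.89, gave -0.28, -0.14, -0.08 and -0.14 against MIR in the order PAX5-WT, PAX5-G183S, PAX5-G183V and PAX5-P80R, and none of these passed, nor did its -0.51 (adjusted p = 0.137) and -0.45 (0.18) for PAX5-P80R and PAX5-G183V against PAX5-Δ2-6.

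Ifi209, a PYHIN protein of the family that binds DNA, rose in 3 groups and fell in PAX5-P80R. It lay between 5.73 and 6.16 in MIR (median 6.07), between 5.96 and 7.21 in PAX5-WT (median 6.86), between 5.90 and 7.29 in PAX5-G183S (median 6.47) and between 6.27 and 6.59 in PAX5-G183V (median 6.43). It lay between 5.23 and 5.92 in PAX5-P80R (median 5.41) and between 5.25 and 6.32 in PAX5-Δ2-6 (median 5.70). PAX5-G183V lay above all MIR arrays and PAX5-P80R under all PAX5-WT arrays. Against MIR it rose by 0.66 (SE 0.12, adjusted p = 0.000243) in PAX5-WT, 0.58 (SE 0.12, adjusted p = 0.00143) in PAX5-G183S and 0.52 (SE 0.12, adjusted p = 0.00363) in PAX5-G183V. In PAX5-P80R it fell by 0.48 (SE 0.14, adjusted p = 0.0307) against MIR and by 1.14 (SE 0.14, adjusted p = 2.44e-07) against PAX5-WT.

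The Ifi209 rises differed in size between the batches, at 0.89 in batch 1 and 0.36 in batch 2 for PAX5-WT and 0.83 and 0.34 for PAX5-G183S. Both calls ended on batch 2 alone (0.36, adjusted p = 0.208, and 0.33, adjusted p = 0.194) and on plate 2 alone (0.70, 0.0767, and 0.45, 0.361), and the PAX5-G183S call also without batch terms (0.51, 0.0933). The PAX5-G183V rise ended on batch 1 alone (0.28, adjusted p = 0.415), on plate 2 alone (0.55, 0.234), without batch terms (0.45, 0.119) and with the mean of all probe sets (0.21, 0.158).

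The PAX5-P80R fall of Ifi209 against MIR depended on single arrays. It did not pass without MIR replicate 6 or 7 or PAX5-P80R replicate 1, 2 or 5, with adjusted p of 0.053 to 0.0953, nor on batch 1 alone (adjusted p = 0.256), on plate 2 alone (0.18), with the replicate block (0.451), without batch terms (0.155) or with the mean of all probe sets (0.0937). With the 4 runs as a term it was -0.21 (adjusted p = 0.969), the fall against PAX5-WT was -0.87 (adjusted p = 0.354) and the PAX5-G183V rise was 0.77 (adjusted p = 0.31). In the shared runs PAX5-G183V exceeded PAX5-Δ2-6 by 0.76 (SE 0.14, adjusted p = 0.000257), by 0.33 in isolation batch 1 and 1.09 in batch 2, with overlap. On batch 1 alone this was 0.27 (adjusted p = 0.524). PAX5-P80R did not pass against PAX5-Δ2-6 for Ifi209, with means of 5.49 and 5.74 and overlapping arrays. A dimmer Ifi209 probe set gave differences near 0.

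Dhx58, which makes LGP2, a helicase that tunes RNA sensing, rose in PAX5-WT and PAX5-G183S. It lay between 4.73 and 5.27 in MIR (median 4.85), between 4.99 and 5.88 in PAX5-WT (median 5.25), between 4.92 and 5.60 in PAX5-G183S (median 5.45) and between 4.22 and 4.96 in PAX5-P80R (median 4.77). The rises overlapped MIR, and the PAX5-P80R arrays lay under all PAX5-WT arrays. Against MIR it rose by 0.39 (SE 0.12, adjusted p = 0.036) in PAX5-WT and by 0.47 (SE 0.12, adjusted p = 0.00931) in PAX5-G183S. The PAX5-G183S rise was not followed through the other fits. The PAX5-WT rise was 0.69 in isolation batch 1 and -0.0041 in batch 2, and it ended in 8 of 14 fits that left out 1 array (adjusted p 0.0512 to 0.132), on plate 2 alone (0.34, 0.546), with only the 2 groups (0.39, 0.101) and with the mean of all probe sets (0.13, 0.187). The 2 dimmer Dhx58 probe sets gave -0.02 (adjusted p = 0.95) and 0.03 (0.92) for PAX5-WT against MIR. PAX5-P80R decreased by 0.64 against PAX5-WT (SE 0.13, adjusted p = 0.00133), a call that ended with the 4 runs as a term and with only the 2 groups (-0.53, adjusted p = 0.152). For this comparison the 2 dimmer probe sets gave -0.05 (adjusted p = 0.842) and 0.03 (0.916). Ifih1, Eif2ak2, Adar, Oasl1 and Oasl2, which sense, edit or respond to double-stranded RNA, passed nowhere, with differences of -0.25 to 0.28 and a lowest adjusted p of 0.2.

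Of the ubiquitin, ADP-ribose and nuclear body genes, Herc6, the mouse ligase that attaches ISG15, fell. It lay between 4.54 and 5.36 in MIR (median 5.31), between 3.85 and 4.62 in PAX5-WT (median 4.54), between 3.52 and 5.12 in PAX5-G183S (median 4.08) and between 3.67 and 4.72 in PAX5-G183V (median 4.43). It lay between 4.26 and 4.85 in PAX5-P80R (median 4.55) and between 4.20 and 5.37 in PAX5-Δ2-6 (median 4.88). Every group overlapped MIR. Against MIR it fell by 0.76 (SE 0.14, adjusted p = 0.000202) in PAX5-WT, by 0.77 (SE 0.14, adjusted p = 0.000168) in PAX5-G183S, by 0.66 (SE 0.14, adjusted p = 0.00119) in PAX5-G183V and by 0.55 (SE 0.15, adjusted p = 0.0282) in PAX5-P80R. The last ended without MIR replicate 7 (adjusted p = 0.0738) or PAX5-P80R replicate 2, 3 or 5 (0.0717, 0.0533 and 0.0547), and with the 4 runs as a term it was -0.56 (adjusted p = 0.84). It ended too on batch 1 alone (adjusted p = 0.0545), batch 2 alone (0.324) and plate 2 alone (0.156), with the replicate block (0.274) and without batch terms (0.159). The PAX5-G183V fall also ended with the 4 runs as a term. Against PAX5-Δ2-6, Herc6 passed in neither PAX5-P80R nor PAX5-G183V. Its mean was 4.89 in PAX5-Δ2-6 against 5.10 in MIR, which did not pass. On batch 2 alone the PAX5-WT and PAX5-G183V falls of Herc6 did not pass, at -0.78 (adjusted p = 0.093) and -0.49 (0.151), nor on plate 2 alone (-0.80, 0.0641, and -0.52, 0.341).

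Trim25, a ligase that activates RIG-I, lay between 9.85 and 9.99 in PAX5-P80R and between 9.65 and 9.82 in MIR. The 2 groups did not overlap, and the rise of 0.14 (SE 0.04, adjusted p = 0.0382) ended in 8 of 13 fits that left out 1 array (adjusted p 0.0521 to 0.141), among them the fit without MIR replicate 7. It also ended on batch 1 alone (0.08, adjusted p = 0.59), on batch 2 alone (0.22, 0.0836), on plate 2 alone (0.16, 0.16), with the replicate block (0.15, 0.269), with only the 2 groups (0.16, 0.279) and with the 4 runs as a term (0.13, 0.863). Parp9 and Dtx3l, partners in 1 complex and neighbours in the genome, Parp14 beside them, and the nuclear body gene Sp100 passed nowhere, with differences of -0.23 to 0.23.

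Antigen processing and secreted members changed little. Psmb8, a catalytic subunit of the immunoproteasome, lay between 12.25 and 12.38 in PAX5-P80R (median 12.32) and between 12.01 and 12.20 in PAX5-WT (median 12.09), with no overlap, and the difference was 0.16 (SE 0.04, adjusted p = 0.0045), which did not pass with the 4 runs as a term, on batch 1 alone (0.15, adjusted p = 0.174), on batch 2 alone (0.19, 0.123), on plate 2 alone (0.16, 0.0794), with the replicate block (0.17, 0.143) or with only the 2 groups (0.17, 0.226). Its difference from MIR in PAX5-P80R was 0.09 (adjusted p = 0.225). Psmb9, its partner subunit, had 0.13 for PAX5-P80R against PAX5-WT (adjusted p = 0.187), while another Psmb9 probe set gave 0.35 (adjusted p = 0.00585).

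Cxcl10, a chemokine that draws T cells, was dim. It lay between 3.68 and 4.05 in PAX5-WT (median 3.89), between 3.43 and 3.81 in MIR (median 3.62), between 3.54 and 3.65 in PAX5-G183V (median 3.57) and between 3.44 and 3.78 in PAX5-P80R (median 3.65). PAX5-WT overlapped MIR and lay above all PAX5-G183V arrays. It rose by 0.24 against MIR in PAX5-WT (SE 0.06, adjusted p = 0.012), a call not followed through the other fits. Against PAX5-WT it decreased by 0.29 in PAX5-G183V (adjusted p = 0.0403) and by 0.22 in PAX5-P80R (adjusted p = 0.0493), calls that ended in 11 of 14 and 9 of 13 fits that left out 1 array (adjusted p 0.0594 to 0.11 and 0.0562 to 0.147) and with the 4 runs as a term. On batch 1 alone they were -0.27 (adjusted p = 0.425) and -0.31 (0.148), and neither passed with the replicate block (0.0774 and 0.274) or with only the 2 groups (0.113 and 0.376). Lgals3bp, a secreted glycoprotein, passed in none, with differences of -0.21 to 0.34.

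Some of these genes differed as much between the isolation batches as between the constructs. The batch goes with the transduction run, so these cannot be told apart. In batch 2 of MIR 2 of the 39 genes were higher and 3 lower than in batch 1 (12.8%), where 4.82% of all genes passed, 2.52% higher and 2.3% lower. All 5 that passed in PAX5-WT were lower (12.8%, all genes 6.59%, 3.87% higher and 2.72% lower), as were all 4 in PAX5-G183S (10.3%, all genes 4.52%, 2.94% higher and 1.57% lower). In PAX5-G183V 1 was higher and 3 lower (10.3%, all genes 6.11%, 3.77% higher and 2.33% lower), and in PAX5-P80R 1 higher and 2 lower (7.69%, all genes 3.65%, 1.49% higher and 2.16% lower). In PAX5-Δ2-6 1 was higher and 4 lower (12.8%, all genes 5.47%, 3.83% higher and 1.65% lower). Of the 39 genes, 12 passed in at least 1 of these 6 comparisons (30.8%, all genes 17.4%) and 27 in none.

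**Figure D4:**
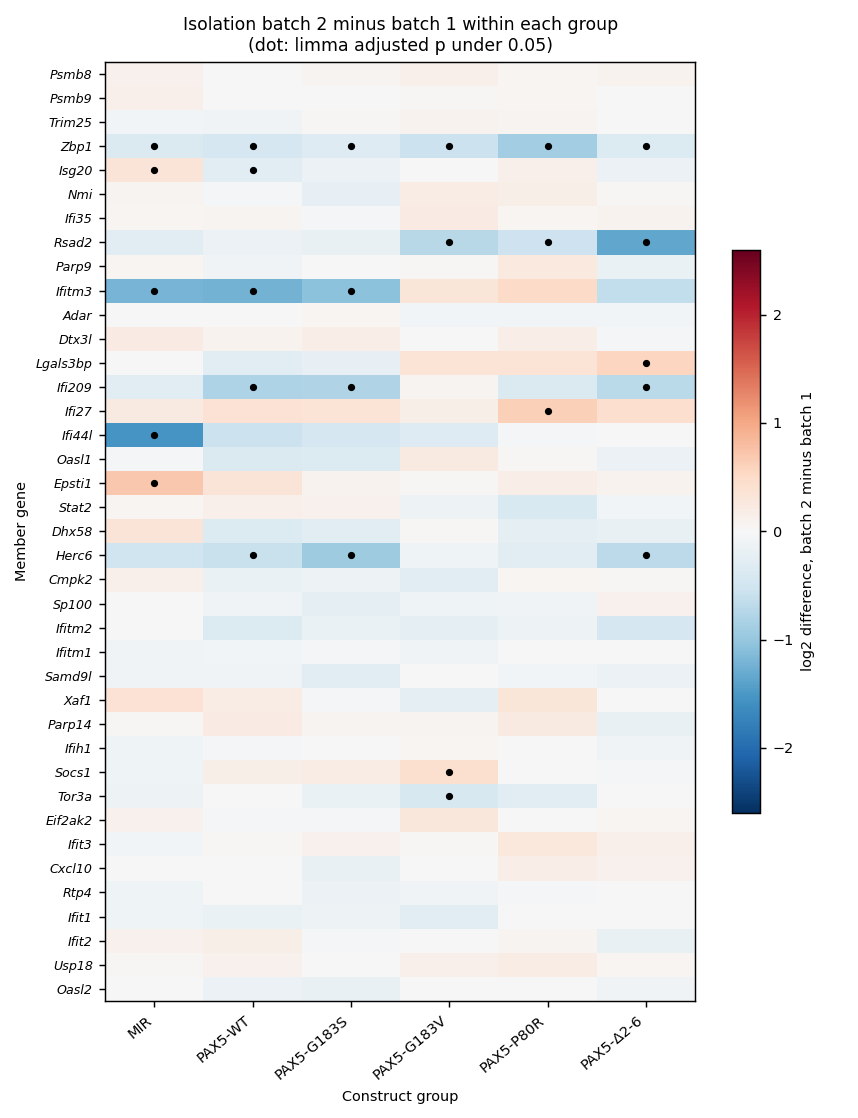
Fitted log2 difference of isolation batch 2 minus batch 1 for each of the 39 genes (rows, ordered by mean signal) within each construct group (columns), as colour from blue (lower in batch 2) to red (higher), with a dot where the adjusted p is under 0.05. Zbp1 is blue with a dot in all 6 columns.

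Zbp1 was lower in batch 2 in every group. Its MIR arrays lay between 9.86 and 10.02 in batch 1 and between 9.52 and 9.63 in batch 2, and its PAX5-P80R arrays between 9.74 and 9.84 and between 8.86 and 8.90. The batches did not overlap in either group. It fell by 0.37 (adjusted p = 0.00371) in MIR, 0.43 (0.000787) in PAX5-WT, 0.34 (0.00889) in PAX5-G183S, 0.55 (5.55e-05) in PAX5-G183V, 0.91 (1.29e-08) in PAX5-P80R and 0.36 (0.0094) in PAX5-Δ2-6. The PAX5-G183S call ended without replicate 3 (-0.24, adjusted p = 0.18), and the PAX5-Δ2-6 call without replicate 1 or 6 (adjusted p 0.0608 and 0.0593). With the mean of both Zbp1 probe sets the call ended in 5 of 6 groups, at -0.27 (adjusted p = 0.155) in MIR, -0.21 (0.29) in PAX5-WT, -0.14 (0.583) in PAX5-G183S, -0.28 (0.102) in PAX5-G183V and -0.12 (0.647) in PAX5-Δ2-6.

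Ifitm3 and Ifi44l fell in batch 2 of MIR. Ifitm3 lay between 7.28 and 7.45 in batch 1 of MIR and between 5.75 and 6.58 in batch 2, and Ifi44l between 5.71 and 5.91 and between 4.01 and 4.60. Neither gene overlapped between the batches. Ifitm3 fell by 1.22 (adjusted p = 0.000739) in MIR, by 1.23 (adjusted p = 0.000585) in PAX5-WT and by 1.06 (adjusted p = 0.0038) in PAX5-G183S. Ifi44l fell by 1.53 in MIR (adjusted p = 4e-05). PAX5-G183S replicate 4, whose transduction number puts it with the other run of batch 2, had 8.64 for Ifitm3 and 6.61 for Ifi44l, where the other batch 2 arrays of that group had 7.13 to 7.32 and 5.23 to 5.55. In PAX5-G183V and PAX5-P80R the Ifitm3 batch difference was 0.31 (adjusted p = 0.516) and 0.49 (adjusted p = 0.326).

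The PAX5-P80R rises differed in size between the batches. For Ifitm3 the difference from MIR was 1.75 in batch 1 and 3.46 in batch 2, and for Ifi44l it was 1.63 and 3.13. The groups stayed apart within each batch. The change between batches differed from that in MIR by 1.71 for Ifitm3 (adjusted p = 0.0062) and 1.495 for Ifi44l (adjusted p = 0.0164). The latter ended without MIR replicate 5 (adjusted p = 0.0545), MIR replicate 6 (0.0668) or PAX5-P80R replicate 2 (0.0574).

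Rsad2 fell in batch 2 of the 3 groups of the shared runs. It lay between 8.63 and 8.75 in batch 1 of PAX5-Δ2-6 and between 7.25 and 7.47 in batch 2, between 8.36 and 8.42 and between 7.61 and 7.78 in PAX5-G183V, and between 8.77 and 9.01 and between 8.15 and 8.59 in PAX5-P80R. The batches did not overlap in any of these groups. It fell by 1.34 (adjusted p = 4.75e-07) in PAX5-Δ2-6, by 0.71 (adjusted p = 0.000742) in PAX5-G183V and by 0.54 (adjusted p = 0.0208) in PAX5-P80R. The last ended without PAX5-P80R replicate 1, 3, 4 or 5 (adjusted p 0.0946, 0.0594, 0.132 and 0.0804). PAX5-G183S replicate 4 had 7.70, against 8.18 to 8.68 in the other arrays of its group.

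Ifi209 was lower in batch 2 of PAX5-WT by a fall of 0.81 (adjusted p = 0.000114), where its arrays lay between 6.86 and 7.21 in batch 1 and between 5.96 and 6.36 in batch 2. In PAX5-G183S it fell by 0.77 (adjusted p = 0.000331) and in PAX5-Δ2-6 by 0.70 (adjusted p = 0.0019). Herc6 fell by 0.92 in PAX5-G183S (adjusted p = 0.00197), by 0.57 in PAX5-WT (adjusted p = 0.0483) and by 0.69 in PAX5-Δ2-6 (adjusted p = 0.029). The PAX5-WT call of Herc6 ended in each of 7 fits that left out 1 array (adjusted p 0.0631 to 0.185), and the PAX5-Δ2-6 call without replicate 1, 2 or 5 (0.113, 0.116 and 0.19).

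Isg20 went opposite ways in the batches of 2 groups. It lay between 9.11 and 9.37 in batch 1 of MIR and between 9.54 and 9.67 in batch 2, a rise of 0.33 (adjusted p = 0.00555) that ended without replicate 7 (0.27, adjusted p = 0.0857). In PAX5-WT it lay between 9.25 and 9.49 and then between 9.01 and 9.23, and fell by 0.30 (adjusted p = 0.01). This fall was not followed through fits that left out 1 array. Epsti1 rose by 0.70 in batch 2 of MIR (adjusted p = 0.0198), a call that ended without MIR replicate 2, 3 or 7 (adjusted p 0.0687, 0.0795 and 0.207). With the mean of all probe sets this Epsti1 difference was 0.29 (adjusted p = 0.141).

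The other calls between batches were single ones, and each depended on single arrays. In PAX5-G183V Socs1 rose by 0.41 (adjusted p = 0.0329), which ended in 5 of 7 fits that left out 1 array (adjusted p 0.0528 to 0.166), and Tor3a fell by 0.43 (adjusted p = 0.0121), which ended without replicate 2 (0.096). Ifi27 rose by 0.63 in PAX5-P80R (adjusted p = 0.0193), which ended in 4 of 6 such fits (0.0789 to 0.128) and with the mean of all probe sets (0.33, adjusted p = 0.199). Lgals3bp rose by 0.56 in PAX5-Δ2-6 (adjusted p = 0.044), which ended in all 6 such fits (0.0634 to 0.188).

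**Figure D5:**
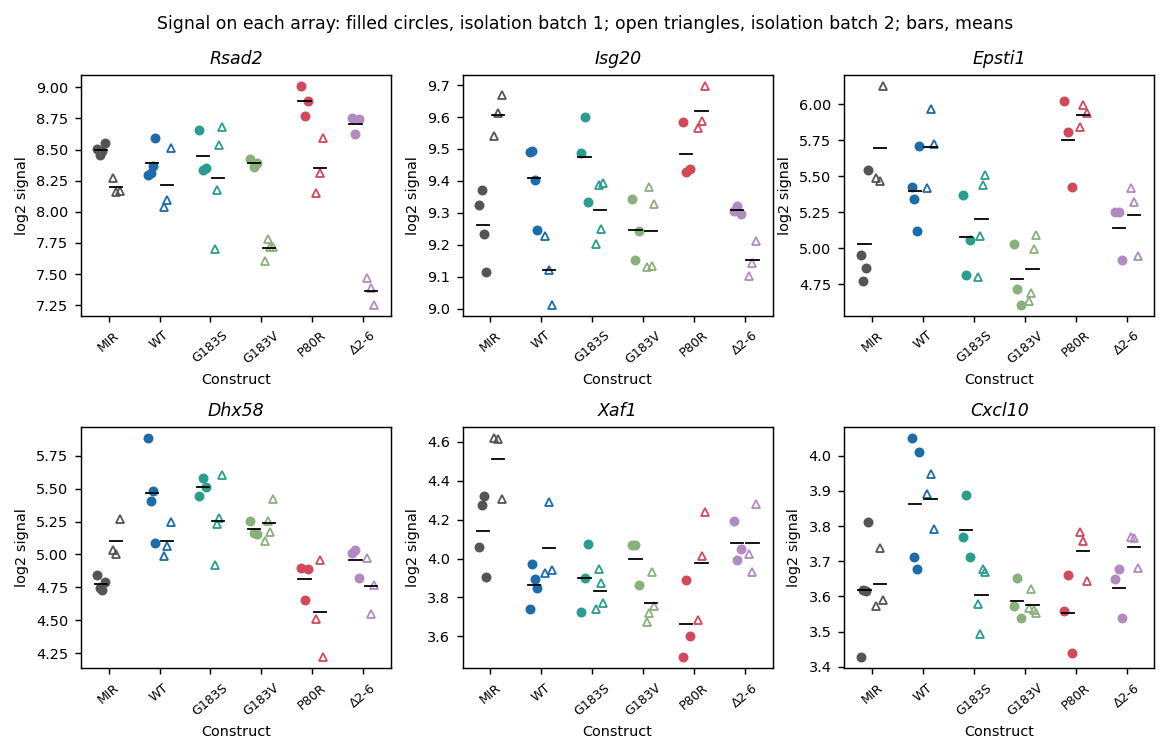
Log2 signal of Rsad2, Isg20, Epsti1, Dhx58, Xaf1 and Cxcl10 on each array, by construct group, with filled circles for isolation batch 1, open triangles for batch 2 and bars for the mean of each batch. Rsad2 of PAX5-Δ2-6 falls from 8.63 to 8.75 in batch 1 to 7.25 to 7.47 in batch 2, and Isg20 of MIR and PAX5-WT move in opposite directions.

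Within isolation batch 2, PAX5-Δ2-6 differed from MIR in 3 of the 39 genes (7.69%, all genes 1.94%), and within batch 1 in none (all genes 0.0117%). In batch 2 Ifi44l was higher by 1.03 (adjusted p = 0.0242), Rsad2 fell by 0.94 (adjusted p = 0.00197) and Isg20 fell by 0.40 (adjusted p = 0.00994). With the batch 2 arrays fitted alone 1 member passed, as lower, so the Ifi44l rise did not pass there. Of the MIR arrays of batch 2, replicates 5 and 6 are on plate 1, so these values lean on the plate term. In the MIR arrays of batch 2 Ifi44l was low and Isg20 was high, as given above.

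The other genes of the pathway set the members in context. They were not followed through the other fits. With the 4 runs as a term, 70 of all genes passed in PAX5-P80R against MIR and 123 in PAX5-G183V against MIR. In the main fit these counts were 807 and 1586. None of the 11 measured interferon ligands of 21 listed passed in any comparison, and all had means of 3.25 to 4.00, under the median of all genes. Of the 15 receptor and kinase genes, 1 rose and 1 fell in PAX5-WT and in PAX5-G183S (13.3% in each, all genes 6.43% and 6.12%), 1 fell in PAX5-G183V (6.67%, all genes 9.28%) and none passed in PAX5-P80R or PAX5-Δ2-6 against MIR. Ifnar2, a chain of the type I interferon receptor, fell by 0.28 (adjusted p = 0.00037) in PAX5-WT, by 0.20 (0.0136) in PAX5-G183S and by 0.31 (9.47e-05) in PAX5-G183V. Ptpn6, the phosphatase SHP-1, rose by 0.27 (adjusted p = 0.0193) in PAX5-WT and 0.35 (adjusted p = 0.00142) in PAX5-G183S.

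Of 9 measured transcription factors, 2 rose in each of PAX5-WT, PAX5-G183S and PAX5-G183V against MIR (22.2%, against the 6.43%, 6.12% and 9.28% of all genes that passed in either direction) and none in PAX5-P80R. With lists this short the shares rest on 1 or 2 genes. Irf2, which binds the same promoter element, rose by 0.25 (adjusted p = 0.0381) in PAX5-WT, 0.32 (0.0059) in PAX5-G183S and 0.41 (0.000304) in PAX5-G183V. Irf8, a B lineage factor, rose by 0.59 (adjusted p = 0.0255) in PAX5-G183S. Irf7, the factor that amplifies interferon production, differed from MIR by 0.27 in PAX5-WT (adjusted p = 0.0659), and Irf9 by -0.05. Of 14 measured sensors and adaptors, 1 rose and 1 fell in PAX5-WT and in PAX5-G183V (14.3% in each, all genes 6.43% and 9.28%). None passed in PAX5-G183S (all genes 6.12%). In PAX5-P80R 1 passed (7.14%, all genes 4.72%), where Ddx58, which encodes RIG-I, fell by 0.41 (adjusted p = 0.00303).

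A further list of 59 interferon-induced genes, 49 of them measured, moved both ways as well. In PAX5-WT 5 rose and 6 fell (22.4% passed, all genes 6.43%), in PAX5-G183S 5 and 5 (20.4%, all genes 6.12%), in PAX5-G183V 3 and 5 (16.3%, all genes 9.28%) and in PAX5-P80R 2 and 2 (8.16%, all genes 4.72%), and in PAX5-Δ2-6 none passed (all genes 0%). The PAX5-P80R share is 4 genes and lies near that of all genes. This list was also chosen with earlier results of these data known. Irgm1, a GTPase that guards against intracellular pathogens, lay between 6.49 and 7.54 in MIR and between 7.74 and 8.40 in PAX5-P80R, without overlap, and rose by 1.05 (adjusted p = 4.9e-14), 0.82 (4.07e-11), 0.84 (2.09e-11) and 1.22 (6.02e-14) in the order PAX5-WT, PAX5-G183S, PAX5-G183V and PAX5-P80R. Mx1, a GTPase that blocks influenza virus, lay between 6.08 and 6.76 in PAX5-P80R and between 6.99 and 7.27 in MIR, and fell by 0.83 (adjusted p = 2.75e-07). It also fell in PAX5-P80R by 0.65 (adjusted p = 2.56e-05) against PAX5-WT and by 0.59 (adjusted p = 7.72e-05) against PAX5-Δ2-6, whereas Ifitm3 and Ifi44l rose in the same 3 comparisons.

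Of 12 measured antigen processing and presentation genes outside the module, 2 rose and none fell in PAX5-P80R against MIR (16.7%, all genes 4.72%). In PAX5-WT 2 rose and 1 fell (25%, all genes 6.43%). In PAX5-G183S 1 rose (8.33%, all genes 6.12%) and in PAX5-G183V 2 rose (16.7%, all genes 9.28%), and none fell in either. H2-K1, a classical class I heavy chain, lay between 12.34 and 12.61 in PAX5-P80R and between 11.97 and 12.22 in MIR, and rose by 0.42 (adjusted p = 0.00013). H2-D1, another, rose by 0.40 (adjusted p = 3.76e-06) in PAX5-P80R, and by 0.16 (0.0448), 0.17 (0.0304) and 0.21 (0.0046) in PAX5-WT, PAX5-G183S and PAX5-G183V.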

How the data were processed

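Each of the 40 arrays is 1 transduction of J558LuM, grouped by the construct in the labels. The authors deposited log2 signals made by RMA, per the submitters' processing notes, which name no version. RMA subtracts background and makes the arrays' distributions alike, so a shift common to all genes would not be seen. Precision is limited by how many arrays there are. Array medians ran from 4.21 to 4.27. Of 45141 probe sets, 28898 name 1 gene in the platform annotation, 551 name several and 15692 none. The highest-mean probe set stood for each of 17097 genes, and 17 members have more than 1. No 2 columns were identical (closest pair r = 0.99766, all probe sets).

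limma 3.58.1 (R 4.3.3, statmod 1.5.0) was fitted to all 40 arrays with group, plate and isolation batch, and p-values were adjusted over all genes by Benjamini-Hochberg (threshold 0.05). A second fit with 1 term for each group in each batch gave within-batch values and the batch-by-group terms. The code was tested on simulated data. Alternatives were other batch, run, plate, scaling, filter, probe set and variance settings, the replicate number as a block, and each array left out in turn. All members may be named, with full values for those that passed. From the pathway lists up to 4 genes that passed per comparison were eligible, and Irf7 and Irf9 always. The members and lists were chosen with earlier results of these data known.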

Additional observations from a re-analysis of the deposited data

Results flagged for a closer look

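The change of a gene between the isolation batches differed from that in MIR in 8 cases (limma, adjusted over all genes). In PAX5-WT it was Isg20, at -0.634 (adjusted p = 0.00826), which fell in batch 2 where it rose in MIR. The call ended without MIR replicate 7 (adjusted p = 0.0784) or PAX5-WT replicate 7 (0.0778). All genes passed this test at 0.0292%.

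Ifitm3 differed from MIR in its batch change by 1.526 in PAX5-G183V (adjusted p = 0.0105, all genes 1.04%) and by 1.706 in PAX5-P80R (adjusted p = 0.0062, all genes 0.696%). The first ended without MIR replicate 6 (1.31, adjusted p = 0.0599). Ifi44l differed by 1.495 in PAX5-P80R (adjusted p = 0.0164) and by 1.541 in PAX5-Δ2-6 (adjusted p = 0.0313, all genes 0.211%). The former ended without MIR replicate 5 or 6 or PAX5-P80R replicate 2, and the latter in 11 of 13 fits that left out 1 array, with adjusted p of 0.0503 to 0.134. In both genes the MIR arrays of batch 2 were the low ones.

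Zbp1 fell further between the batches in PAX5-P80R than in MIR, by -0.5326 (adjusted p = 0.0175), which ended without MIR replicate 6 (0.0668) or PAX5-P80R replicate 1 (0.0542). In PAX5-Δ2-6 Rsad2 differed by -1.068 (adjusted p = 0.0201), which ended without MIR replicate 5 (0.0728) or PAX5-Δ2-6 replicate 1 (0.0532). Isg20 differed there by -0.4891 (adjusted p = 0.0478), which ended in each of 13 such fits (adjusted p 0.0511 to 0.125). No member passed for PAX5-G183S, where 0% of all genes did and 7 members had an unadjusted p under 0.05.

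Among the 114 sets of arrays looked at, 1 for each named gene in each group, 6 had an array apart from the rest by Dixon's test, where chance gives about 5%. Epsti1 was 5.427 in PAX5-P80R replicate 3, against 5.806 to 6.018 in the others of the group. PAX5-G183V replicate 5 was low for Herc6 (3.673 against 4.327 to 4.722) and for Ifi44l (5.331 against 6.172 to 6.594). Socs1 was high in MIR replicate 1 (3.96 against 3.57 to 3.726), Trim25 low in PAX5-G183S replicate 1 (9.657 against 9.727 to 9.779) and Xaf1 high in PAX5-WT replicate 6 (4.293 against 3.74 to 3.973).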

How the results depend on the processing

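Of 1888 comparisons of 87 single-gene results with an alternative, 1569 kept direction and call, 312 kept direction and lost the call and 7 reversed, and 22 results kept both throughout. The 87 leave out Dhx58 and Socs1 in PAX5-G183S against MIR and Cxcl10 in PAX5-WT against MIR. They also leave out Isg20 in PAX5-P80R against PAX5-Δ2-6, Isg20 between the batches of PAX5-WT and all genes of the pathway lists. The counts of members that passed moved by over 1.5 times as follows. For PAX5-G183V against PAX5-WT the count was 0 without batch terms, on plate 2 alone and with 4 runs as a term. All genes gave 4, 1 and 1 there, against 25 in the main fit. The member count was 1 with the replicate block, with only the 2 groups, after quantile scaling, after the filter on dim genes and with the trended robust variance. Over all genes the replicate block gave 16, the 2 groups 18, quantile scaling 25 and the dim filter 52. On batch 1 alone the member count was also 1 (all genes 40), but that gene was higher, while both genes of the main fit were lower. For PAX5-G183V against MIR the member count was 5 on batch 1 alone, 3 on plate 2 alone and 2 with 4 runs. All genes gave 302, 211 and 123 there, against 1586 in the main fit. For PAX5-P80R against MIR the member count was 3 on batch 1 alone, 4 on plate 2 alone and 3 with 4 runs. It was 3 with the replicate block and 5 with only the 2 groups. All genes gave 156, 198, 70, 173 and 148 there, against 807 in the main fit. Against PAX5-Δ2-6 the PAX5-P80R member count was 3 on batch 1 alone (all genes 92, main fit 565). For PAX5-WT against MIR the member count was 4 on batch 2 alone and 3 on plate 2 alone. All genes gave 229 and 225 there, against 1099 in the main fit. For PAX5-G183S the member count was 2 on plate 2 alone (all genes 153, main fit 1046). For PAX5-Δ2-6 against MIR the member count was 1 on batch 2 alone and 3 with 3 runs. All genes gave 56 and 677 there, against 0 in the main fit. For PAX5-P80R against PAX5-WT the member count was 4 on plate 2 alone, 0 with 4 runs, 2 with the replicate block and 3 with only the 2 groups. All genes gave 478, 37, 202 and 275 there, against 1078 in the main fit. The batch-by-group count of PAX5-G183V was 2 after quantile scaling, the dim filter, averaging probe sets or the trended robust variance, and the MIR batch count 3 after averaging probe sets. Over all genes the former was 182 after quantile scaling, 452 after the dim filter and 178 after averaging, against 177 in the main fit. The MIR batch count over all genes was 617 after averaging, against 824. Fits on 1 batch or plate hold fewer arrays, and the cause of the other moves was not tested.

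Leaving out 1 array gave counts of 6 to 9 for PAX5-WT against MIR (6 without PAX5-WT replicate 1), 9 to 11 for PAX5-G183S, 9 to 10 for PAX5-G183V, 5 to 9 for PAX5-P80R (5 without PAX5-P80R replicate 5) and 0 to 0 for PAX5-Δ2-6. In that order all genes gave 880 to 1043, 819 to 1047, 1188 to 1627, 555 to 846 and 0 to 1. Against PAX5-WT the member counts were 0 to 0 for PAX5-G183S, 0 to 2 for PAX5-G183V (0 without PAX5-WT replicate 6) and 5 to 7 for PAX5-P80R, and against PAX5-Δ2-6 5 to 8 for PAX5-P80R and 5 to 6 for PAX5-G183V. In that order all genes gave 9 to 16, 5 to 33, 797 to 1120, 419 to 583 and 646 to 843. Between batches the member counts were 3 to 5 in MIR, PAX5-WT and PAX5-G183S, 2 to 4 in PAX5-G183V and PAX5-Δ2-6 and 1 to 3 in PAX5-P80R. In that order all genes gave 465 to 627, 674 to 953, 360 to 1113, 577 to 884, 462 to 609 and 321 to 508. The batch-by-group counts of members were 0 to 1 for PAX5-WT, 0 to 0 for PAX5-G183S, 0 to 2 for PAX5-G183V and PAX5-Δ2-6 and 1 to 3 for PAX5-P80R. In that order all genes gave 1 to 3, 0 to 5, 80 to 184, 1 to 43 and 58 to 121.

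The reversals were Dhx58 in PAX5-WT against MIR on batch 2 alone (-0.004133) and, for probe sets other than the brightest, an alternative chosen after seeing the data, Dhx58 in PAX5-WT against MIR (-0.02063), Xaf1 (0.03679) and Ifi44l (-0.08638) in PAX5-G183S against MIR, Ifi209 in PAX5-G183V against MIR (-0.1039) and PAX5-Δ2-6 (-0.06861) and Dhx58 in PAX5-P80R against PAX5-WT (0.03051). Replicate numbers do not pair the arrays: over 96 pairs of arrays with the same number in different groups the correlation of deviations ran from -0.223 to 0.194 (median -0.0363), against a median of 0.0032 over 570 other pairs. Dim genes such as Cxcl10 and Socs1 lie under the median signal, where a change is compressed.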

Other observations

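Relatives of Ifi209 and Irgm1 fell in groups in which those genes rose. Ifi204, a PYHIN gene like Ifi209, fell against MIR by 0.82 (SE 0.16, adjusted p = 0.000449) in PAX5-WT, by 0.77 (adjusted p = 0.00113) in PAX5-G183S and by 0.66 (adjusted p = 0.00451) in PAX5-G183V, the groups in which Ifi209 rose. Its signal lay between 7.76 and 8.29 in MIR and between 6.73 and 7.72 in PAX5-WT, without overlap. Ifi205, another of the family, fell by 0.21 (adjusted p = 0.03) in PAX5-WT and by 0.20 (adjusted p = 0.0425) in PAX5-G183S. Among the immunity-related GTPases Igtp, which lay between 8.96 and 9.14 in MIR and between 8.45 and 8.77 in PAX5-WT, fell by 0.44 (adjusted p = 3.03e-05) in PAX5-WT, by 0.37 (adjusted p = 0.000482) in PAX5-G183S, by 0.50 (adjusted p = 3.8e-06) in PAX5-G183V and by 0.34 (adjusted p = 0.00596) in PAX5-P80R, the 4 groups in which Irgm1 rose.

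Trim30a, a feedback inhibitor of NF-kB signalling, rose by 0.57 (adjusted p = 0.00447) in PAX5-WT, 0.50 (adjusted p = 0.014) in PAX5-G183S and 0.65 (adjusted p = 0.000898) in PAX5-G183V against MIR. Ly6e, a surface protein that restricts coronavirus entry, fell by 0.48 (adjusted p = 2.25e-05), 0.32 (adjusted p = 0.00527) and 0.35 (adjusted p = 0.00161) in the same groups. These values come from limma over all genes, and the comparisons share the MIR arrays. They were not followed through the other fits.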
